A study of Mus musculus with 9 samples.

Results

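Of the 9 libraries of this RNA-seq series, the 3 titled as ILC2s with IL-33 (replicates 1 to 3) are described here, chosen by their titles alone. Group 2 innate lymphoid cells (ILC2s) of wild-type mice (strain C57BL/6) had been taken from lymphoid clusters in fat (fat-associated lymphoid clusters) and were cultured for 48 h with IL-33 at 10 ng/ml and no other added cytokine. In the series' other groups the same cells received IFN-g or IL-27 beside IL-33, so every library of the series had IL-33, and those groups were not used here. The labels give neither the age of the mice nor how the cells were purified, and they do not say whether the 3 libraries came from separate mice or cultures, so the spread between them may be technical. Each library gave 1 FPKM value (mapped fragments scaled to transcript length and to library size) for each of the same 22505 gene symbols, after 729 symbols of small RNAs had been left out of the 23234 listed. Genes were ranked by the mean FPKM of the 3 libraries. Throughout, the values of a gene in single libraries are given in the order of replicates 1, 2 and 3, and a mean is given with its standard deviation (SD, n = 3).

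ILC2s are tissue-resident lymphocytes without rearranged antigen receptors that respond to alarmins, cytokines released by stressed or damaged tissue. IL-33 binds the receptor ST2, encoded by Il1rl1, which pairs with the accessory chain encoded by Il1rap and signals through MyD88 and IRAK kinases to NF-kB and MAP kinases. Under the control of GATA3, ILC2s release IL-5, which sustains eosinophils, and IL-13, which acts on epithelium, smooth muscle and macrophages. In fat they are known for supporting eosinophils and alternatively activated macrophages.

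The defining ILC2 genes were high in all 3 libraries. Il13 was measured at 11034, 6582 and 5428 FPKM and Il5 at 9222, 5587 and 6141 FPKM. Il2ra, the high-affinity chain of the IL-2 receptor (CD25), stood at 877, 1018 and 889.9 FPKM. Both cytokine genes were highest in replicate 1, whereas Il2ra was nearly level, with a coefficient of variation (CV, the SD as a percentage of the mean) of 8.39%. Il1rl1 was measured at 384, 478 and 846 FPKM and Klrg1, an inhibitory lectin-like receptor of mature ILC2s, at 159, 208 and 277 FPKM. Gata3, the transcription factor that ILC2s depend on, stood at 161, 183 and 272 FPKM. For these last 3 genes replicate 3 was the highest library and replicate 1 the lowest. All 16 genes of a wider ILC2 list had a mean of at least 1 FPKM, 15 of them in every library, and their median of means was 204.9 FPKM against 14 FPKM over the 10762 genes averaging at least 1 FPKM. The exception was Il17rb, the IL-25 receptor chain, listed at 1.1, 0 and 2.7 FPKM. Gpr44, which encodes the prostaglandin D2 receptor CRTH2 and is not in that list, was listed at 0 in every library. The list was chosen with earlier results of these data known.

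**Figure D1:**
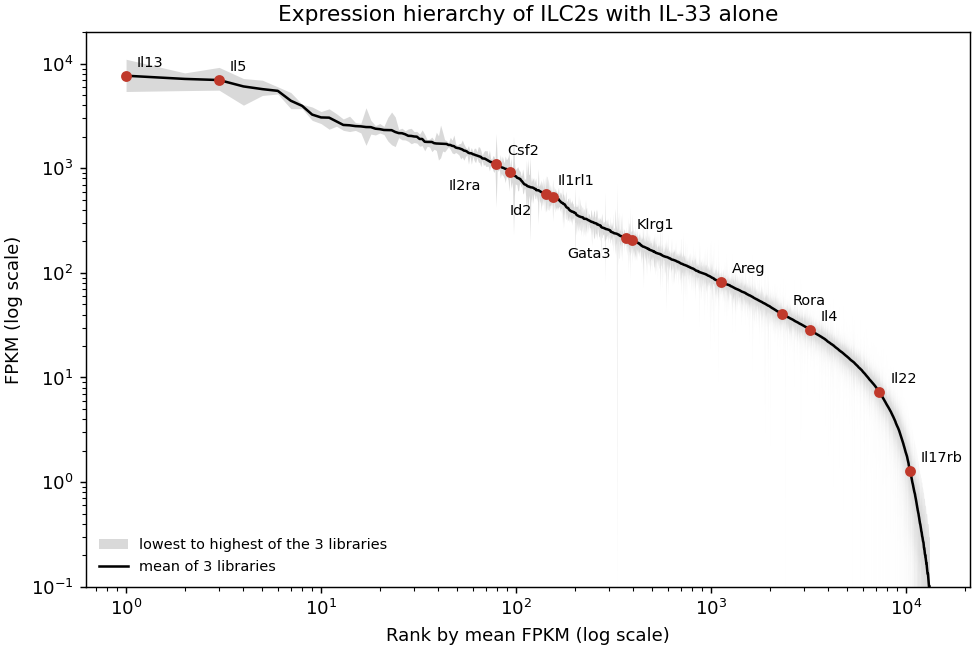
Mean FPKM of each gene (y axis, log scale) against its rank by mean FPKM (x axis, log scale) in ILC2s cultured with IL-33 alone. The black line is the mean of 3 libraries, the grey band runs from the lowest to the highest library, and red points mark ILC2 genes, from Il13 at rank 1 and Il5 at rank 3 down to Il17rb at rank 10498.

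Measured expression ran from the limit of detection to the 7681 FPKM of Il13. A mean of at least 1 FPKM was found for 10762 of the 22505 symbols and of at least 10 FPKM for 6376. The mean was at least 100 FPKM for 895 and at least 1000 FPKM for 87, while 8990 symbols were listed at 0 in all 3 libraries. Counts of list members detected or listed at 0 are to be read beside these numbers over all symbols. The 10 highest genes of a library held 10.1%, 9.52% and 9.22% of its FPKM sum over the kept symbols, and the 100 highest held 33.9%, 35.1% and 34.5%. From the steps between low values, the libraries were estimated to rest on about 910000, 990000 and 870000 fragments. At that depth 3 fragments in a transcript of 2 kb correspond to 1.65, 1.52 and 1.73 FPKM, so for genes listed at 0 lower levels were not detectable. These limits cover counting error only, and they rest on a depth that was sought within a preset range. The symbols left out held 17.9% of the FPKM sum in replicate 1 but 7.0% and 8.13% in the others, and the kept symbols summed to 530145, 592661 and 577505 FPKM. Over the 10762 genes, replicate 1 was the highest of the 3 libraries for 30.6%, replicate 2 for 31.3% and replicate 3 for 38.1%, and the lowest for 37.4%, 28.5% and 34.2%. With each library rescaled to the same sum of kept genes, the shares highest were 40.0%, 24.0% and 36.0%.

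At the top of the hierarchy stood 2 secreted cytokines among genes that nearly every cell uses. Il13 ranked 1 with 7681 ± 2961 FPKM, Eef1a1, the translation elongation factor that delivers aminoacyl-tRNA, ranked 2 with 7157 ± 1418 FPKM, and Il5 ranked 3 with 6983 ± 1958 FPKM. Next came Tmsb4x (thymosin beta 4, which binds actin monomers) with 6068 ± 1781 FPKM, Ppia (cyclophilin A) with 5717 ± 1081 FPKM and Actg1 (gamma actin) with 5504 ± 453 FPKM. The order among neighbours at the top was not stable: Il13 exceeded Eef1a1 only in replicate 1, and it exceeded Il5 only in replicates 1 and 2. Each adjacent pair among the 10 highest genes had overlapping ranges. Without replicate 1, Il13 averaged 6005 FPKM and ranked 3, and Il5 averaged 5864 FPKM and ranked 5. Together Il5 and Il13 made up 3.82%, 2.05% and 2.00% of a library's FPKM sum. Of the 30 highest genes, 12 were in the lists of cytoplasmic ribosomal proteins, and of the 100 highest 54 were. Members of the highest 30 outside those lists included Rack1, listed as Gnb2l1 (2180.0, 2679.7 and 2692 FPKM), and ferritin light chain Ftl1 (2336, 3152 and 2246 FPKM). B2m, the invariant chain of MHC class I (2250.1, 2176 and 2682 FPKM), and the ubiquitin gene Ubb (1614, 1965 and 3099 FPKM) were others. Gm15772 and Gm12070, annotated as pseudogenes, ranked 13 and 23, and their values are uncertain because reads may be shared with near-identical genes.

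The type 2 cytokine locus of chromosome 11 held a steep contrast between neighbouring genes. In build mm9 (GENCODE vM1), Il4 lies at chr11:53416484-53432171 on the minus strand, Il13 (ENSMUSG00000020383.1) at chr11:53444826-53448204 on the minus strand, Rad50 at chr11:53463021-53520821 and Il5 (ENSMUSG00000036117.2) at chr11:53534296-53538608 on the plus strand. Il4, which encodes the cytokine that shares a receptor chain with IL-13, was measured at 25.4, 27.9 and 32.6 FPKM. The ratio of Il13 to Il4 was 434, 236 and 166, and that of Il5 to Il4 was 363, 200.1 and 188, so the ranges of Il4 and of both neighbours were far apart. Rad50, a DNA repair gene between Il13 and Il5 whose body contains the locus control region, stood at 63.7, 73.4 and 62.4 FPKM. The ratio of Il13 to Il5 was 1.20, 1.18 and 0.884. Kif3a, a kinesin gene on the other side of Il4, was measured at 9.52, 13.9 and 18.1 FPKM. The models of Il4 and Kif3a overlap at their ends, and where strand was not counted reads from the overlap cannot be told apart. The promoters of the 3 cytokine genes (RefSeq, build GRCm38.p6, 250 bases before and 50 from each start) are shown because their levels differ so widely within a single locus. Capitals mark matches to TATAAA, the TATA box, or GATAA, a core of GATA factor sites, on either strand.
Il13 promoter, chr11:53634653-53634952, minus strand: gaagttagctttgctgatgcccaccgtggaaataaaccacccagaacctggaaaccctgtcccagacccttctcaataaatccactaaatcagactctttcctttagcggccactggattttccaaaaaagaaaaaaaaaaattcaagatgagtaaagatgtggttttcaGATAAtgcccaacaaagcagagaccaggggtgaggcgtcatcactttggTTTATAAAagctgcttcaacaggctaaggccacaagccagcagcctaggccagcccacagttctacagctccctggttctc
Il5 promoter, chr11:53720544-53720843, plus strand: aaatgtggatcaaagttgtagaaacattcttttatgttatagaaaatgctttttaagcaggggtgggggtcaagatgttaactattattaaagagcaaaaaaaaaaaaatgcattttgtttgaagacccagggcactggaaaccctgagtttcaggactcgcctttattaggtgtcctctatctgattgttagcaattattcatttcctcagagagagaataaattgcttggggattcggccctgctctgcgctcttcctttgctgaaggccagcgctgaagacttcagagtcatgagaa
Il4 promoter, chr11:53618616-53618915, minus strand: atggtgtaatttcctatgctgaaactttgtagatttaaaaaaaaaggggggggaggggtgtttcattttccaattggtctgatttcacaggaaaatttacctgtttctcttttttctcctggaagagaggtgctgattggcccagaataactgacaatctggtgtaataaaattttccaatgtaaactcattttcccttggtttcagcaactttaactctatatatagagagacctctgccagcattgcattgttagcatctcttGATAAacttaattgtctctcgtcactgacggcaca
The Il13 promoter held TATAAA on both strands, in overlapping matches 31 and 29 bases before the start, and GATAA 80 bases before it. No match was found in this Il5 window, and the Il4 window held GATAA 16 bases after the start, while a second Il4 promoter of the table held no match. None of the 3 windows held TGANTCA, the AP-1 motif, on either strand. Of all 32851 RefSeq promoters of this length, 13.62% held TATAAA, 25.41% GATAA and 7.808% TGANTCA; the motifs do not overlap one another in the 3 windows. These matches describe letters in a window and not sites in use.

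Further along chromosome 11, Csf2, which encodes the myeloid growth factor GM-CSF (chr11:54060773-54063169), was measured at 2145, 715 and 426 FPKM. The mean was 1095 ± 921 FPKM, and without replicate 1 it was 570.4 FPKM. Its neighbour Il3 stood at 22.1, 4.33 and 0 FPKM, listed at 0 in replicate 3. Both genes were highest in replicate 1 and lowest in replicate 3. Il9, an autocrine ILC2 growth factor on chromosome 13 (chr13:56580638-56583607), was measured at 2029, 233 and 305 FPKM. Replicate 1 stood far above the others for Il9, whose mean of 856 ± 1017 FPKM became 269 FPKM without that library. Of 36 cytokine genes, 20 had a mean of at least 1 FPKM, against 10762 of all 22505 symbols. Another 10 were listed at 0 throughout, against 8990 of all symbols. Replicate 1 was the highest library for 13 of those 20 (14 after rescaling), against 30.6% of all genes (40.0% after rescaling).

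Among the other cytokines, Mif (macrophage migration inhibitory factor) stood at 616, 519 and 469.5 FPKM. Il6, a pleiotropic inflammatory cytokine, was measured at 658, 335 and 134 FPKM, and its mean of 376 ± 264 FPKM became 235 FPKM without replicate 1. Tgfb1, which encodes the latent regulatory cytokine TGF-beta 1, was measured at 285, 194 and 232 FPKM. The CV of Il6 was 70.4%, and those of Mif and Tgfb1 were 14% and 19.2%. Osm and Lif, relatives of IL-6 that signal through gp130, stood at 175, 159 and 187 FPKM and 123, 54.6 and 145 FPKM. Ebi3, the shared subunit of IL-27 and IL-35, was measured at 72.6, 34.7 and 36.3 FPKM, while Il27 itself was listed at 0 in all 3 libraries. In the order of means Tgfb1 exceeded Osm, and Osm exceeded Lif, in every library without overlap of ranges, while the neighbours from Csf2 to Tgfb1 overlapped. Il22 stood at 9.79, 6.85 and 5.1 FPKM. Ifng and Il17a had means of 0.333 and 0.333 FPKM and were named after their values were seen. The alarmin genes Il25 and Tslp were listed at 0, and Il33 had a mean of 0.545 FPKM.

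**Figure D2:**
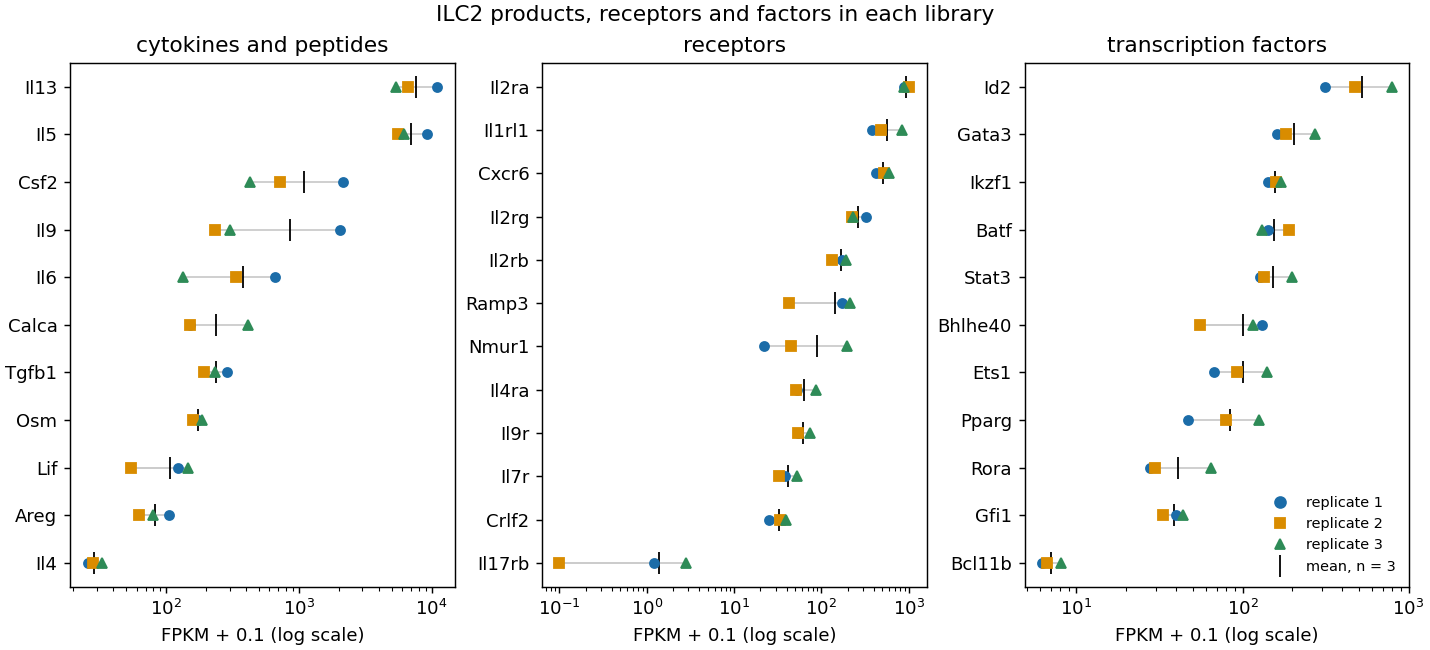
FPKM + 0.1 (x axis, log scale) of cytokine and peptide genes, receptor genes and transcription factor genes, 1 gene per row, with a symbol for each of the 3 libraries and a vertical tick for the mean. Il13 and Il5 lie near the right end of the first panel, replicate 1 stands apart for Il9 and Csf2, and Il17rb is the lowest receptor shown, at a mean of 1.27 FPKM.

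Genes of repair factors and peptides covered a wide range. Lgals1, which encodes the glycan-binding lectin galectin-1, stood at 544, 827 and 1167 FPKM. Calca, which encodes calcitonin and the neuropeptide CGRP, was measured at 151, 150.5 and 413 FPKM, with a mean of 238 FPKM that became 151 FPKM without replicate 3. Areg, the gene of the epidermal growth factor relative amphiregulin, stood at 104, 62.7 and 79.6 FPKM. Replicate 3 was highest for Lgals1 and Calca, and replicate 1 for Areg. Vegfc, a growth factor of lymphatic vessels, stood at 67.9, 51.1 and 31.1 FPKM. Grn, the progranulin gene, was measured at 21.5, 23.6 and 59.8 FPKM, and its mean without replicate 3 was 22.6 FPKM. Penk, which encodes the opioid precursor proenkephalin, stood at 47.1, 6.94 and 26.5 FPKM, lowest in replicate 2, and its mean of 26.9 FPKM became 16.7 FPKM without replicate 1. Of the 29 genes of the list, 17 had a mean of at least 1 FPKM, against 10762 of all 22505 symbols. Another 7 were listed at 0, among them Retnla and Nmu, against 8990 of all symbols.

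Of 32 chemokine genes, 14 had a mean of at least 1 FPKM, against 10762 of all 22505 symbols. Their median of means was 0.559 FPKM, against 0.666 FPKM over all symbols. Without replicate 1 or without replicate 3, only 10 of the 32 averaged at least 1 FPKM. Cxcl3, a neutrophil attractant, was the highest at 287, 99.0 and 68.1 FPKM, with a mean of 151 FPKM that became 83.5 FPKM without replicate 1. Cxcl2, of the same family, stood at 30.7, 6.35 and 5.7 FPKM. Both were highest in replicate 1. Ccl1, the ligand of CCR8, was measured at 16.9, 0 and 0 FPKM and was thus listed at 0 in replicates 2 and 3. Ccl11, the eosinophil attractant eotaxin, stood at 0, 1.07 and 12.7 FPKM. Ccl5 was measured at 6.22, 2.85 and 6.1 FPKM, and Ccl3 at 5.21, 15.9 and 1.7 FPKM.

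The receptors for growth-promoting cytokines formed a graded order. After Il2ra (928 ± 77.9 FPKM) and Il1rl1 (569 ± 244 FPKM) came the other IL-2 receptor chains, Il2rg, the common gamma chain, at 327, 225 and 233 FPKM and Il2rb at 174, 131 and 193 FPKM. Each of these 4 exceeded the next in all 3 libraries without overlap of ranges. Lower were Il18rap, an IL-18 receptor chain, at 66.5, 81.0 and 91.1 FPKM, Il4ra, shared by the IL-4 and IL-13 receptors, at 52.4, 51.6 and 87.5 FPKM, and Il9r at 53.6, 53.9 and 75.1 FPKM. The ranges of these 3 overlapped, although Il18rap lay above Il4ra and Il9r in each single library. Il7r, the receptor of IL-7 and, with Crlf2, of TSLP, stood at 38.2, 32.8 and 52.3 FPKM, and Crlf2 at 25.4, 33.2 and 39.3 FPKM. Il1rap, the partner chain of ST2, was measured at 4.69, 4.94 and 3.8 FPKM, so Il1rl1 exceeded it in every library. Tgfbr2, a TGF-beta receptor chain, stood at 49.2, 71.8 and 173 FPKM, and its mean of 98 FPKM became 60.5 FPKM without replicate 3. Of the 45 interleukin and alarmin receptor genes, 31 had a mean of at least 1 FPKM, and replicate 3 was the highest library for 19 of them (20 after rescaling), against 38.1% of all genes (36.0% after rescaling). Il1r2, which encodes the decoy receptor of IL-1, was among the least even genes, at 0.893, 1.63 and 58.1 FPKM.

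Among receptors for chemokines and lipid mediators, Cxcr6, the receptor of CXCL16, was by far the highest at 427, 518 and 602 FPKM. Ltb4r1, a receptor of leukotriene B4, stood at 56.5, 79.1 and 134 FPKM, and Ccr4 at 123, 54.1 and 45.3 FPKM. The ranges of Ltb4r1 and Ccr4 overlapped, with opposite orders of the libraries. Ptgir, the prostacyclin receptor, was measured at 76.3, 58.6 and 68.5 FPKM, and Ccr8 at 44.9, 36.2 and 31.6 FPKM. Ccr2 stood at 21.0, 36.3 and 106 FPKM, with a mean of 54.6 FPKM that became 28.7 FPKM without replicate 3. The list of 35 held 21 genes averaging at least 1 FPKM, against 10762 of all 22505 symbols.

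Receptors for neuropeptides and nuclear hormones included some that differed strongly between libraries. Ramp3, a partner protein of calcitonin-family receptors, stood at 173, 42.1 and 211 FPKM, with replicate 2 far below the others. Nmur1, the receptor of the neuropeptide neuromedin U, was measured at 22.1, 45.0 and 199 FPKM, and its mean of 88.6 ± 96.1 FPKM became 33.5 FPKM without replicate 3. Pparg, a lipid-sensing nuclear receptor, stood at 46.8, 80.0 and 125 FPKM. Replicate 3 was highest for all 3 of these genes. The glucocorticoid receptor gene Nr3c1 was measured at 23.9, 35.4 and 60.5 FPKM, the adenosine receptor gene Adora2b at 28.5, 29.0 and 39.1 FPKM and the retinoic acid receptor gene Rara at 23, 21.7 and 38.0 FPKM. Replicate 3 was highest for 11 of the 17 members averaging at least 1 FPKM (11 after rescaling), against 38.1% of all genes (36.0% after rescaling). Another 11 of the 30 were listed at 0, among them Vipr1 and Nmur2.

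Id2, the inhibitor of E proteins that all innate lymphoid lineages need, was the highest lineage factor at 314, 477 and 793 FPKM. Gata3 followed with 205 ± 59.0 FPKM, while Gata1, Gata2, Gata4, Gata5 and Gata6 were listed at 0 in all 3 libraries. Ikzf1 (Ikaros), a lymphoid zinc finger factor, stood at 143, 159 and 169.7 FPKM, and Batf, an AP-1 family factor, at 142, 191 and 132 FPKM. The ranges of Id2 and Gata3 did not overlap, whereas those of Ikzf1 and Batf did. Bhlhe40, a basic helix-loop-helix repressor, was measured at 130.4, 55.4 and 116 FPKM and was lowest in replicate 2. Rora, a nuclear receptor required for ILC2 development, stood at 27.5, 29.7 and 64.7 FPKM, Gfi1 at 39.4, 32.9 and 43.7 FPKM and Bcl11b at 6.10, 6.58 and 8.0 FPKM; these 3 were named after their values were seen. Among factors of NK cells and ILC1s, Eomes was listed at 0 and Tbx21 had a mean of 0.144 FPKM. Of 59 factors measured, 37 had a mean of at least 1 FPKM, and replicate 3 was the highest library for 21 of the 37 (20 after rescaling), against 38.1% of all genes (36.0% after rescaling).

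Of the STAT factors, which carry signals from cytokine receptors to the nucleus, Stat3 was the highest at 127, 134 and 198 FPKM and its range did not overlap with that of Stat4, the next in order. Stat4, Stat5a, Stat6 and Stat5b followed with means of 61.2, 54.1, 42.7 and 39.6 FPKM, and their neighbours in that order overlapped. Stat2 was measured at 6.31, 3.33 and 6.9 FPKM, below those 4 in every library. Among the Janus kinases that phosphorylate STATs, Jak1 was measured at 153, 193 and 162 FPKM, Jak2 at 93.1, 94.4 and 79.2 FPKM, Jak3 at 40.3, 25.9 and 65.3 FPKM and Tyk2 at 21.7, 20.4 and 36.5 FPKM. Only Jak3 and Tyk2 overlapped. The feedback inhibitor genes Socs3 and Cish had nearly the same mean, but Socs3 stood at 30.3, 67.2 and 209 FPKM and Cish at 144, 67.6 and 94.2 FPKM, so the libraries were ordered differently. Without replicate 3 the mean of Socs3 was 48.8 FPKM, and of Cish 106 FPKM. The kinase gene Pim1 was measured at 88.0, 118 and 122 FPKM. All 11 genes of the STAT and JAK list and all 11 of the SOCS and Pim list had at least 1 FPKM in every library.

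All 9 interferon regulatory factor genes had a mean of at least 1 FPKM, and 7 did without replicate 3. Irf1 stood at 34.2, 27.4 and 92.8 FPKM, and its mean of 51.5 FPKM became 30.8 FPKM without replicate 3. Irf3 was measured at 30.3, 25 and 27.4 FPKM and Irf4, a factor of lymphocyte activation, at 33.4, 24.5 and 13.7 FPKM. Irf2, Irf5, Irf8 and Irf9 followed with means from 7.33 to 14.7 FPKM, and neighbours in this order overlapped except Irf5 and Irf8. Irf7, an amplifier of the type I interferon response, stood at 0, 0.597 and 9.6 FPKM.

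The genes of the pathway that IL-33 acts through were all detected: 26 of 26 had at least 1 FPKM in every library. Their median CV was 17.6%, against 25.4% over all genes averaging at least 1 FPKM and 21.2% over genes between 10 and 100 FPKM. The CV falls with level, and the median of means of this list was 31.2 FPKM. Nfkb1, an NF-kB subunit, stood at 148, 107 and 129 FPKM, and its inhibitor gene Nfkbia at 108, 133 and 122 FPKM. The adaptor gene Myd88 was measured at 52.6, 75 and 66.6 FPKM. The CVs of these 3 genes were 15.8%, 10.3% and 17.5%. Genes between 100 and 1000 FPKM, the band of Nfkb1 and Nfkbia, had a median CV of 18.6%. Other members, such as Tnip1 and Nfkb2, were less even. Tnip1, an inhibitor of the pathway, stood at 91.7, 61.6 and 55.8 FPKM, and Bcl3, a nuclear partner of NF-kB, at 58.0, 76.2 and 70.7 FPKM. Nfkb2 stood at 104, 46.4 and 27.6 FPKM, with a mean of 59.3 FPKM that became 37.0 FPKM without replicate 1. For 11 of the 26 genes replicate 1 was the highest library, against 30.6% of all genes, and for 17 after rescaling, against 40.0%.

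Immediate early genes, whose transcripts appear soon after stimulation and decay quickly, varied the most of the transcription factor groups. Junb, an AP-1 subunit, stood at 205, 156 and 370.0 FPKM, and Ier2 at 39.3, 26.8 and 156 FPKM. Egr1, a zinc finger factor, was measured at 11.7, 2.92 and 137 FPKM, and its mean of 50.5 ± 75 FPKM became 7.31 FPKM without replicate 3. Replicate 3 was the highest library for 9 of the 12 members averaging at least 1 FPKM (8 after rescaling), against 38.1% of all genes (36.0% after rescaling), and the median CV of the 12 was 65.2%. Jund, Ier3 and Fosl2 stood at 39.5, 69.3 and 49.5 FPKM, 57.4, 28.4 and 43.0 FPKM and 35.0, 12 and 35.6 FPKM. Without replicate 3 the mean of Ier2 was 33.1 FPKM. Nr4a1, an orphan nuclear receptor of the same kinetics, was instead highest in replicate 1, at 54.2, 13.9 and 14.1 FPKM, and averaged 14 FPKM without it.

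The most abundant surface molecules were Ly6a (Sca-1), a GPI-anchored protein, at 1094, 1499 and 1583 FPKM and Cd52, a small glycoprotein of lymphocytes, at 1184, 1323 and 1555 FPKM. Both ranked among the 100 highest genes. Ly6e, another Ly6 family member, stood at 583, 488 and 518 FPKM, the tetraspanin gene Cd82 at 446, 260.1 and 324 FPKM and Spn (CD43) at 192, 175 and 255 FPKM. Tnfrsf18 (GITR) and Tnfrsf9 (4-1BB), receptors of the TNF family, were named because they differed strongly between libraries. Tnfrsf18 stood at 84.9, 33.6 and 245 FPKM and Tnfrsf9 at 62.3, 18.9 and 198 FPKM. Both were lowest in replicate 2 and highest in replicate 3. Their means without replicate 3 were 59.2 and 40.6 FPKM. Tnfsf4, which encodes OX40 ligand, was highest in replicate 1, at 54.3, 11.9 and 10.0 FPKM, and its mean of 25.4 FPKM became 11 FPKM without that library. Thy1, a common ILC marker, stood at 51.8, 41.3 and 83.8 FPKM, the stem cell factor receptor gene Kit at 45.9, 49.6 and 34.7 FPKM and the costimulator gene Icos at 22.7, 35.7 and 53.9 FPKM; these 3 were named after their values were seen. Of the 53 genes listed, 40 had a mean of at least 1 FPKM, with replicate 1 highest for 22 (23 after rescaling) against 30.6% of all genes (40.0% after rescaling).

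Integrin genes were led by Itgb7, the beta chain used in gut homing, at 105, 141 and 293 FPKM, and Itgb2, the beta chain of LFA-1, at 111, 109 and 159 FPKM. Their ranges overlapped. Itgb3 stood at 66.6, 53.9 and 130.2 FPKM, Itgal, the partner of Itgb2 in LFA-1, at 97.4, 65.5 and 83.9 FPKM and Itga4, a partner of Itgb7, at 48.2, 87.1 and 75 FPKM. Several genes that carry signals from antigen receptors in T cells were high as well. Lcp2 (SLP-76) stood at 213, 168 and 227 FPKM, the adaptor gene Lat at 61.2, 59.7 and 82.7 FPKM and the kinase gene Zap70 at 52.5, 44.8 and 101 FPKM. Of the CD3 chains, Cd3g stood at 29.8, 40.9 and 79.5 FPKM and Cd247 at 8.23, 8.17 and 6.8 FPKM, Cd3e had a mean of 0.817 FPKM and Cd3d was listed at 0; Cd247 was named after its values were seen. Of the 23 genes of this list, 12 had a mean of at least 1 FPKM, against 10762 of all 22505 symbols. The class I genes H2-K1 and H2-D1 stood at 664, 466 and 688 FPKM and 607, 503 and 662 FPKM; these genes are much alike, and how reads were divided between them is uncertain. Srgn, the proteoglycan of secretory granules, was measured at 1061, 945 and 1497 FPKM, whereas Gzma, Gzmb and Gzmc were listed at 0 in all 3 libraries.

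Enzymes of amino acid and lipid mediator metabolism included some of the most uneven genes. Arg1, which hydrolyses arginine and marks ILC2s, stood at 200.5, 492 and 1292 FPKM in well separated libraries, and its mean of 661 ± 565 FPKM became 346 FPKM without replicate 3. Tph1, the rate-limiting enzyme of serotonin synthesis outside the brain, was measured at 131, 349.7 and 353 FPKM, and Odc1, which starts polyamine synthesis, at 180.3, 159.5 and 119 FPKM. Alox5, which starts leukotriene synthesis, stood at 63.6, 72.8 and 155 FPKM and Lta4h, which makes leukotriene B4, at 62.8, 63.0 and 56.5 FPKM. Arg1, Tph1 and Alox5 were lowest in replicate 1 and highest in replicate 3. Cyp11a1, the enzyme that starts steroid synthesis from cholesterol, stood at 294, 566 and 989.5 FPKM and ranked 130; it was named after its values were seen.

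The protein synthesis machinery took the largest share of any group listed. Cytoplasmic ribosomal protein genes of both subunits together held 16.8%, 19.5% and 17.2% of the FPKM sum. Replicate 2 was the highest library for 38 of 47 large-subunit genes (33 after rescaling) and for 27 of 32 small-subunit genes (24 after rescaling), against 31.3% of all genes (24.0% after rescaling). Rplp1, a stalk protein of the large subunit, led at 3714, 5298 and 4263 FPKM, followed by Rpl23a at 2677, 3489 and 3028 FPKM, while Rps12 led the small subunit at 2527, 3322 and 2569 FPKM. Rps27, at 2.47, 1.95 and 2.2 FPKM, and Rpl34, at 18.9, 38.9 and 4.5 FPKM, were among the lowest of their lists, and values of ribosomal protein genes are uncertain because many have processed copies that can share reads. Among translation factors, Npm1, a nucleolar chaperone placed in that list, stood at 3081, 3703 and 2365 FPKM, Eif5a at 1926, 1989 and 1443 FPKM and Tpt1 at 1200.5, 1925 and 2045 FPKM. All 26 genes of the list had at least 1 FPKM in every library.

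Chaperone and secretory pathway genes were mostly high, and the secretory genes were also even for their level. Hspa8, the constitutive cytosolic HSP70, stood at 2874, 3858 and 3059.6 FPKM, and Hsp90ab1 at 1354, 1435 and 1305 FPKM. Hspa5 (BiP), the HSP70 of the endoplasmic reticulum, was measured at 1080.3, 991 and 1109.6 FPKM and P4hb, a protein disulfide isomerase, at 863, 775 and 1288 FPKM. Heat shock and folding genes averaging at least 1 FPKM had a median CV of 16.8%, against 18.6% for genes between 100 and 1000 FPKM. All 30 genes of the secretory list had at least 1 FPKM in every library. Their median CV of 10.5% was below that 18.6% and below the 25.4% of all genes averaging at least 1 FPKM. Tmed2, a cargo receptor, led at 431, 548 and 514 FPKM. Sec61b and Sec61g, subunits of the translocation channel, stood at 289, 321 and 311 FPKM and 229, 367 and 324 FPKM. Xbp1, the transcription factor of secretory cells, was measured at 181, 206 and 326 FPKM, highest in replicate 3. Furin, a protease that cleaves precursor proteins, was the highest gene of the lysosome and protease list at 1303, 1049.6 and 1202 FPKM. Ctsd, the aspartic protease cathepsin D, followed at 330.0, 464 and 1226 FPKM, and its mean without replicate 3 was 397 FPKM.

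Glycolysis genes were mostly highest in replicate 3 and respiration genes in replicate 2. Replicate 3 was the highest library for 20 of 23 glycolysis genes (19 after rescaling), against 38.1% of all genes (36.0% after rescaling). Gapdh stood at 1660.0, 1989 and 3794 FPKM, Ldha, which makes lactate, at 1823, 2066 and 3065 FPKM and Aldoa, the aldolase of this pathway, at 1262, 1311 and 2591 FPKM. Replicate 3 lay above both others for each. Gapdh has many pseudogenes, so its value is uncertain. The glucose transporter gene Slc2a3 was measured at 15.4, 11.7 and 151 FPKM, and its mean of 59.3 FPKM became 13.5 FPKM without replicate 3. Of 47 nuclear genes of oxidative phosphorylation, 41 were highest in replicate 2 (37 after rescaling), against 31.3% of all genes (24.0% after rescaling). Atp5b and Atp5g3, subunits of ATP synthase, stood at 706, 942 and 732 FPKM and 629, 762 and 515 FPKM, and Slc25a5, an ADP and ATP carrier, at 428, 558 and 332 FPKM. Ndufs5, a complex I subunit, was close to 0 in replicate 1, at 0.00532, 38.3 and 78.5 FPKM, and without replicate 3 its mean was 19.2 FPKM.

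Lipid synthesis genes were detected almost throughout, 32 of 33 with at least 1 FPKM in every library. Dgat1, which completes triglyceride synthesis, stood at 117, 86.4 and 426 FPKM, with a mean of 209.5 FPKM that became 102 FPKM without replicate 3. Dgat2, which catalyses the same step, was instead highest in replicate 1, at 195, 104 and 53.4 FPKM. Acly, which makes cytosolic acetyl-CoA, was even at 146, 145 and 157 FPKM. The desaturase gene Scd2 stood at 117, 120.4 and 282 FPKM, and Fabp5, a fatty acid carrier, at 155, 182 and 86.7 FPKM. Atf4, the factor of the amino acid response, was measured at 140.4, 143 and 154 FPKM and its target Psat1, of serine synthesis, at 117, 136 and 104 FPKM. Ftl1 led the genes of metal and redox handling, followed by Fth1, the ferritin heavy chain, at 521, 648 and 380.0 FPKM and the thioredoxin gene Txn1 at 352, 529 and 309 FPKM.

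Cell cycle genes were present in all 3 libraries. Pcna, the sliding clamp of replication, stood at 563, 569 and 395 FPKM, Top2a, a topoisomerase of dividing cells, at 253, 295 and 234 FPKM, and Ube2c, which serves mitotic exit, at 237, 256 and 200.5 FPKM. Birc5 (survivin) was measured at 173, 225 and 197 FPKM and Cdk4 at 166, 194 and 133 FPKM. Replicate 3 was the lowest library for 31 of the 40 genes averaging at least 1 FPKM (32 after rescaling), against 34.2% of all genes (36.7% after rescaling). Among death and survival genes, Trp53 stood at 172, 134 and 94.2 FPKM, the pro-apoptotic gene Bax at 148, 95.2 and 114 FPKM and the anti-apoptotic gene Bcl2l1 at 110.3, 75.6 and 74.5 FPKM. Interferon-stimulated genes were low to moderate without added interferon. Psmb8, an immunoproteasome subunit, was measured at 112, 156 and 189.8 FPKM, Bst2 (tetherin) at 94.1, 77.8 and 76.7 FPKM and the GTPase gene Igtp at 33.5, 51.4 and 75.2 FPKM. Of 31 such genes, 22 had a mean of at least 1 FPKM, and 17 of the 22 were highest in replicate 3 (17 after rescaling), against 38.1% of all genes (36.0% after rescaling).

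**Figure D3:**
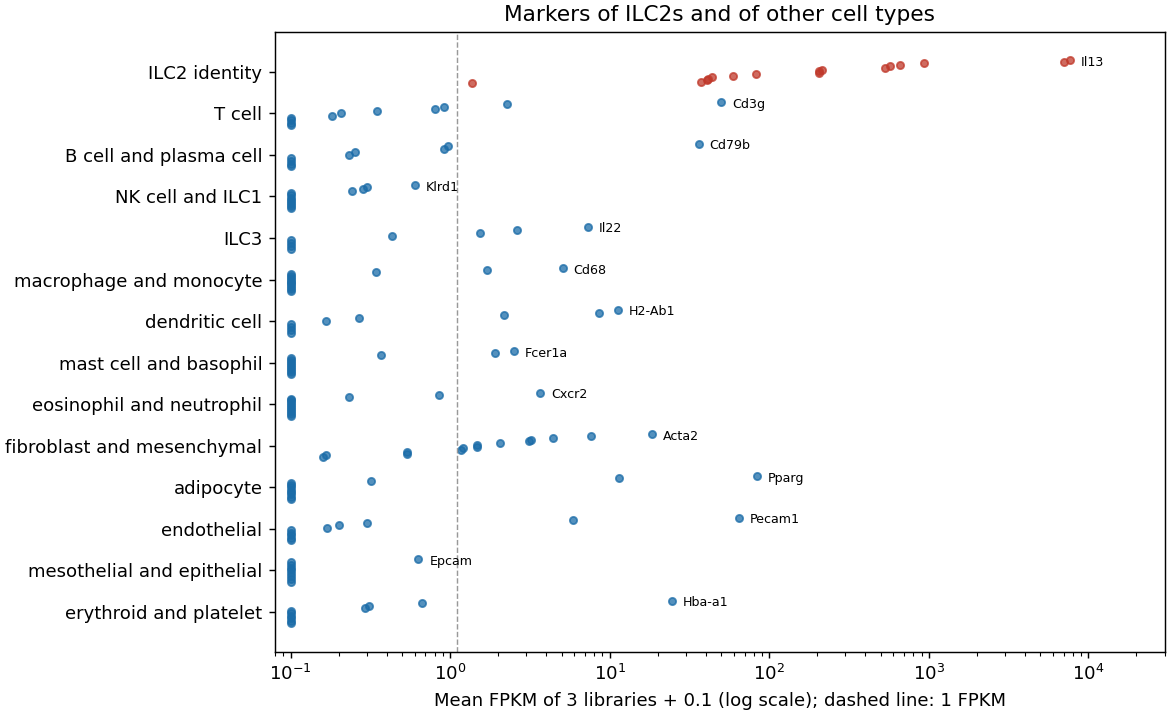
Mean FPKM + 0.1 over 3 libraries (x axis, log scale) of ILC2 markers (red) and of markers of 13 other cell types (blue), 1 point per gene, with the highest gene of each list named. The dashed line is 1 FPKM. Above it lie 16 of 16 ILC2 markers, 2 of 11 T cell markers and 0 of 12 markers of NK cells and ILC1s. Of all 22505 symbols, 10762 averaged at least 1 FPKM. The lists were chosen with earlier results of these data known. The ILC2 list leaves out Gpr44, which was listed at 0 in every library.

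In each list of other immune cell types, most markers averaged under 1 FPKM, and some were listed at 0 in all 3 libraries. Over all 22505 symbols, only 10762 averaged at least 1 FPKM and 8990 were listed at 0 throughout. Lists near these shares say little about a cell type. In bulk RNA, fewer cells of a type and less RNA per cell cannot be told apart. Of 11 T cell markers, 2 had a mean of at least 1 FPKM: Cd3g stood at 29.8, 40.9 and 79.5 FPKM and Cd8b1 at 2.52, 2.30 and 1.7 FPKM, while Cd3d, Cd4, Cd5 and Trat1 were listed at 0. Of 9 B cell and plasma cell markers, Cd79b alone passed, at 34.8, 40.3 and 33.3 FPKM, with Cd79a, Ms4a1 and Pax5 listed at 0. No marker of NK cells and ILC1s passed, and of 8 ILC3 markers Il22, Nrp1 and Lta did, with Il23r and Il17f listed at 0. Lta stood at 4.31, 0 and 0 FPKM and was thus listed at 0 in replicates 2 and 3. Of 13 macrophage markers, Cd68 (3.79, 1.16 and 10.0 FPKM) and Emr1 (2.34, 2.14 and 0.3 FPKM) passed, and Csf1r, Lyz2 and the 3 C1q genes were listed at 0. Without replicate 3 the mean of Cd68 was 2.48 FPKM. Of 12 mast cell and basophil markers, Fcer1a and Hdc passed, with means of 2.42 and 1.82 FPKM that became 1.18 and 1.13 FPKM without replicate 3. Of 13 eosinophil and neutrophil markers, Cxcr2 passed, with a mean of 3.56 FPKM. Of 9 dendritic cell markers, 3 passed: H2-Ab1, an MHC class II chain, stood at 7.20, 0.941 and 25.3 FPKM, the chemokine receptor gene Xcr1 at 6.82, 7.07 and 11.5 FPKM and Ccr7 at 3.44, 0.526 and 2.3 FPKM, with Flt3 and Zbtb46 listed at 0. Without replicate 3 the mean of H2-Ab1 was 4.07 FPKM.

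Among non-haematopoietic and erythroid markers, most averaged under 1 FPKM in each list except that of fibroblast and mesenchymal markers. Of all 22505 symbols, 10762 averaged at least 1 FPKM. Of 11 adipocyte markers, Pparg and Lipe passed, the latter at 9.87, 9.68 and 14.3 FPKM, and Adipoq, Lep, Plin1 and Fabp4 were listed at 0 although the cells came from fat. Of 10 endothelial markers, Pecam1, also present on leukocytes, stood at 78.3, 66.1 and 49.1 FPKM and Egfl7 at 6.36, 5.82 and 5.2 FPKM, with Kdr and Vwf listed at 0. No mesothelial or epithelial marker passed. Of 14 fibroblast and mesenchymal markers, 10 had a mean of at least 1 FPKM, but without replicate 3 only 3 did. Their summed level was 38.5, 21.3 and 72.8 FPKM, and 9 of the 10 were highest in replicate 3 (8 after rescaling), against 38.1% of all genes (36.0% after rescaling). Col1a1, a collagen I chain, stood at 0, 0.207 and 8.9 FPKM and Sparc, a matrix glycoprotein, at 0, 0 and 12.9 FPKM, while Acta2, smooth muscle actin, was even at 19, 15.9 and 20 FPKM. Lum, a matrix proteoglycan, was instead highest in replicate 1, at 16.8, 2.49 and 3.2 FPKM. The haemoglobin gene Hba-a1 was measured at 6.99, 16.8 and 49.2 FPKM, with Hbb-b1 and Hbb-b2 listed at 0, and is uncertain because of its near-identical copy. Most of the 10 fibroblast markers had replicate 3 as highest library, as did most detected genes of the glycolysis, interferon-stimulated and immediate early lists. The part of these markers in those results was not tested.

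The 3 libraries were close to one another across genes. Pearson's r of log2(FPKM + 1) over the 22505 genes was 0.979 for replicates 1 and 2, 0.967 for 1 and 3, and 0.974 for 2 and 3, and Spearman's rho was 0.956, 0.945 and 0.953. Over genes averaging at least 1 FPKM, r was 0.944, 0.908 and 0.931. These correlations run across genes, which are not independent replicates. The same pairs shared 94, 91 and 89 of their 100 highest genes, and 89 genes were among the 100 highest of every library. Among the 10762 genes, 9.74%, 16.7% and 12.2% differed by more than 1 in log2(FPKM + 1) between the libraries of a pair. By this measure replicates 1 and 3 were farthest apart. Adding 1 makes fold differences of low genes smaller.

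**Figure D4:**
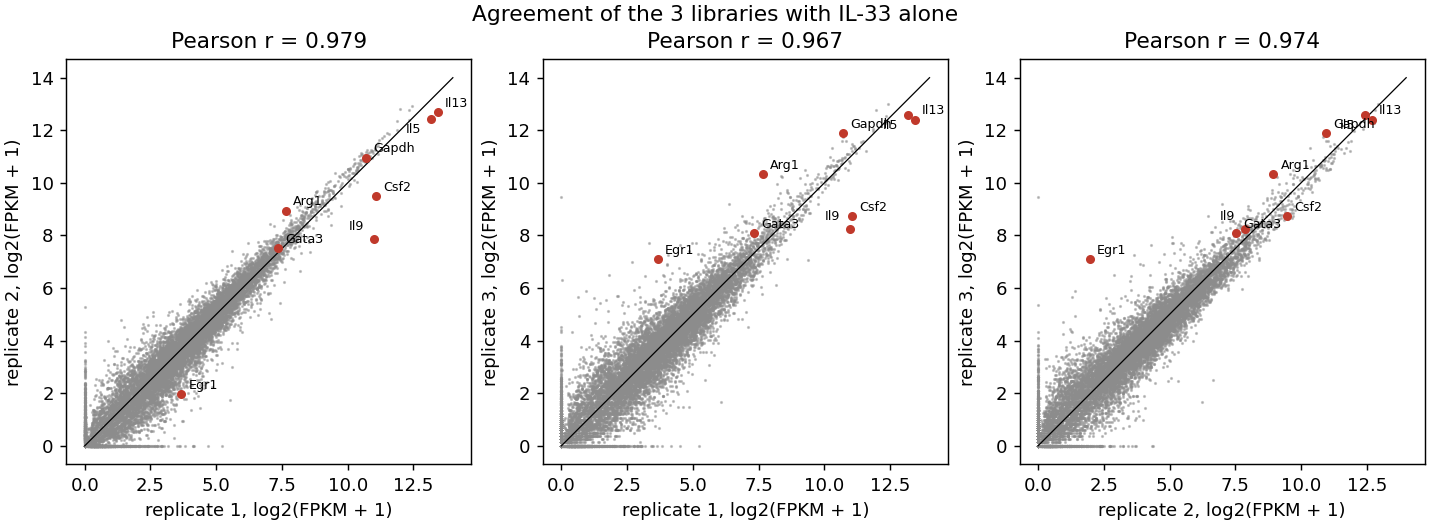
log2(FPKM + 1) of every gene in each pair of libraries, with the diagonal of equal values and 8 genes marked in red. Pearson's r is 0.979, 0.967 and 0.974, Il9 and Csf2 lie on the replicate 1 side, and Arg1 and Egr1 on the replicate 3 side.

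The median spread between libraries was wider than counting error at the estimated depth in every band of level. Genes between 1 and 10 FPKM had a median CV of 36.8% where counting error at the estimated depth gives 26.8%, and genes between 10 and 100 FPKM had 21.2% where it gives 10.8%. Between 100 and 1000 FPKM the values were 18.6% and 4.73%, and above that 15.9% and 1.82%. Among genes averaging at least 100 FPKM, the most even were Rer1, which retrieves proteins to the endoplasmic reticulum, at 114, 111 and 113 FPKM, Stt3a, a catalytic subunit of oligosaccharyltransferase, at 213, 221 and 217 FPKM, and Lbr, the lamin B receptor, at 100.1, 104 and 101 FPKM. The least even were LOC100302567, listed at 0, 0 and 710.5 FPKM and so resting on replicate 3 alone, Il9, and Rgs1, a regulator of G protein signalling, at 81.3, 126 and 593 FPKM, whose mean without replicate 3 was 104 FPKM.

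**Figure D5:**
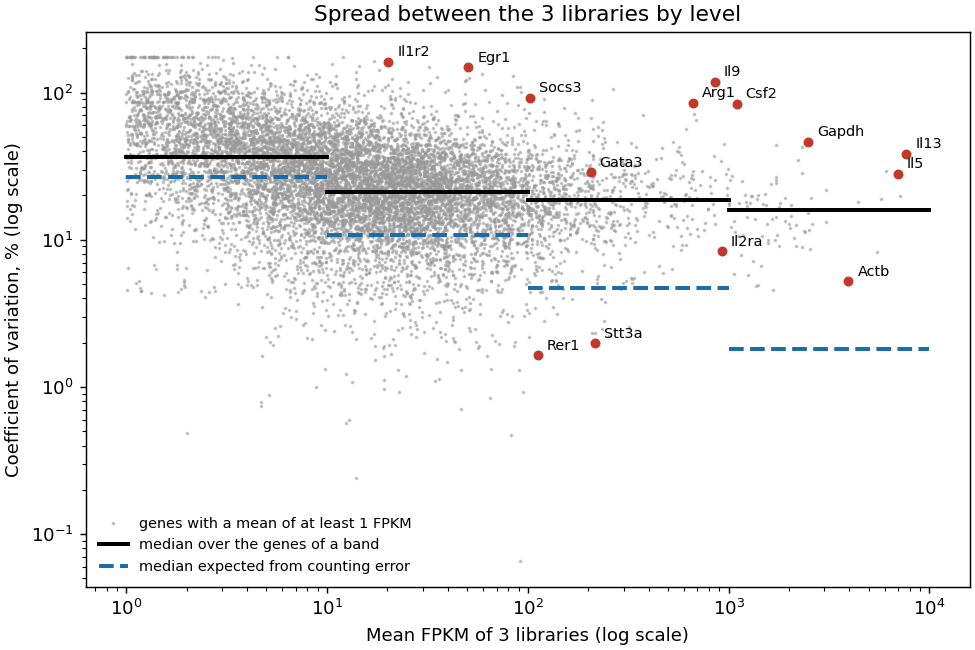
Coefficient of variation over the 3 libraries (y axis, log scale) against mean FPKM (x axis, log scale) for genes averaging at least 1 FPKM. Black bars are medians in 4 bands of level. Blue dashed bars are the median CV that counting error gives at the estimated depth, 15.9% against 1.82% in the highest band. Il9 (119%) and Csf2 (84.1%) lie far above the band, Il2ra (8.39%) and Actb (5.22%) below it.

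Each library also had its own genes out of line, found among the 4275 genes averaging at least 20 FPKM by the gap to the nearest of the other libraries on the log2(FPKM + 1) scale. Replicate 1 stood highest above the others for Il9 (a gap of 2.73), the noncoding RNA Gas5 (135, 27.1 and 21.8 FPKM, gap 2.27), Tnfsf4 and the proton pump gene Atp6v0c (128, 32.0 and 33 FPKM). Without replicate 1 the mean of Gas5 was 24.5 FPKM and of Atp6v0c 32.5 FPKM. It stood lowest for Ndufs5, the phospholipase gene Pla2g7 (1.78, 21.8 and 42.2 FPKM) and the linker histone gene Hist1h1c (5.5, 23.1 and 125 FPKM). Replicate 2 was highest for the SCAN domain gene Scand1 (14.6, 46.9 and 18.0 FPKM) and the ATP synthase-associated gene Usmg5 (73.7, 209 and 87.0 FPKM), by gaps of 1.33 and 1.25. It was far below the others for Ramp3. Replicate 3 was highest for LOC100302567, Il1r2, the prolyl hydroxylase gene Egln3 (2.47, 6.40 and 88.4 FPKM) and Egr1, with gaps from 3.44 to 9.47. It was lowest for BC002163 (65.4, 74.6 and 2.2 FPKM), a gap of 4.37, and for the RNA polymerase subunit gene Polr2k (43.9, 38.9 and 10.8 FPKM). The gaps of replicate 2 above the others were smaller than those of the other libraries.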

How the data were processed

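Total RNA of mouse ILC2s with IL-33 was sequenced as 3 TruSeq RNA v2 libraries, per the labels' protocols. The values deposited by the authors are taken as FPKM, 1 per gene symbol and library; the unit is not written in the tables and was inferred from the tools named and from the values. The submitters' processing notes name Bowtie2 2.1.0, TopHat2 2.0.8, Cufflinks 2.1.1 and build mm9, without roles; the gene annotation is not given in the sources used here. The replicate 3 table has 1 decimal and commas that group digits, which were removed. Values under 1e-06 were read as 0.

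Symbols starting with Mir, Snor, Scarna, n-R or Rnu (729) were left out, as were the 6 libraries of the other groups. The 22505 kept symbols, 25 of them turned into dates by a spreadsheet, were ranked by mean FPKM. Gene positions came from GENCODE vM1 (mm9), with a single match for 93.7%. Depth was estimated from the steps between low values, with lengths from that annotation, and is approximate. The step was sought only within a preset range, so a depth outside it could not have been found. The simulated data used to check the method had depths inside that range, so the check did not cover others. The detection limits and counting errors above depend on this estimate. No test was made: with 3 libraries, an exact two-sided sign permutation cannot go below p = 0.25. Python 3.11.15, numpy 2.4.6, pandas 2.3.3, scipy 1.17.1 and matplotlib 3.10.9 were used.

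The genes, the 52 gene lists and the markers were chosen with earlier results of these data known. Named were the 30 highest genes, the ILC2 markers, up to 6 highest members of each list, the order within receptor and factor families, defining markers of other cell types, the 5 genes by which each library stood highest above or lowest below the others, and the 5 most and least even genes. Not every gene that this rule names is described, and some are not reported here. Alternatives were leaving out each library, rescaling to a common sum of kept genes (1e+06), medians, all symbols kept, a pseudocount of 0.1 in place of 1, and other minimum levels.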

Additional observations from a re-analysis of the deposited data

How the results depend on the processing

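The number of genes averaging at least 1 FPKM was 10645 to 10839 with 1 library left out, 11426 after rescaling, 10825 with all symbols kept, and 11571 or 9893 with a minimum of 0.5 or 2 FPKM. The share of the FPKM sum in the 100 highest genes was 34.2% to 34.8% with 1 library left out and 39.0% with all symbols kept, against 34.5%. The mean Pearson correlation between libraries was 0.973; it was 0.967 to 0.979 with 1 library left out, 0.962 with a pseudocount of 0.1, 0.928 over genes averaging at least 1 FPKM and 0.914 over those with at least 10 FPKM. Of the 100 highest genes, 96 to 98 were still among the 100 highest with 1 library left out, 98 by medians, 100 after rescaling and 84 with all symbols kept. Among 272 genes followed, the mean moved over 1.5-fold for 19 without replicate 1, for 6 without replicate 2 and for 37 without replicate 3, for 37 by medians and for 0 after rescaling. No paired analysis was possible because only 1 group was used and no test was made. The estimated depth, about 990000 fragments or fewer per library, leaves genes near 1 FPKM resting on few fragments, so an absent low gene was not detectable rather than shown absent.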

Other observations

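Long noncoding RNAs, which the text above touches only through Gas5, were mostly detected. Of 17 listed, 14 had a mean of at least 1 FPKM, and replicate 1 was highest for 9 of the 14 with and without rescaling, against 30.6% of all genes (40.0% after rescaling). Snhg6, a host gene of small nucleolar RNAs, stood at 80.2, 119 and 74.0 FPKM and Snhg1, of the same kind, at 89.8, 78.7 and 66.3 FPKM. Snhg12 stood at 48.1, 13.9 and 7.5 FPKM, and Malat1, a nuclear RNA, at 30.7, 10.1 and 15.2 FPKM; both were named after their values were seen. Rn45s, the ribosomal RNA precursor, was measured at 382, 164 and 138 FPKM. Replicate 1 also had the largest share of its FPKM sum in symbols of small RNAs. Among those left-out symbols, Mir684-2 was listed at 11832, 6147 and 7812 FPKM, and Mir3064 at 16072 FPKM in replicate 1 and at 0 in the others. FPKM of such short features rest on few fragments.

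Of 10 sex-linked genes, Xist, the RNA that coats the inactive X chromosome, was measured at 59.4, 20.4 and 21.0 FPKM. The Y-linked genes Eif2s3y, Kdm5d and Uty were listed at 0 in all 3 libraries, and Ddx3y at 0, 0 and 0.9 FPKM. The X-linked genes Ddx3x and Eif2s3x stood at 158, 219 and 156 FPKM and 164, 215 and 129 FPKM. The labels do not give the sex of the mice. Histone and nuclear protein genes were led by Ptma at 1764, 2245 and 2036 FPKM and the histone variant gene H2afz at 678, 826 and 467 FPKM, and replicate 2 was the highest library for 10 of 15 (9 after rescaling), against 31.3% of all genes (24.0% after rescaling).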
